A study of Mus musculus with 24 samples.

Results

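The enzymes described here are the NAD glycohydrolases, encoded by Cd38, Bst1 (which encodes CD157) and Sarm1, and the proteins that make and reduce NADP, encoded by Nadk, Nadk2 and Nnt. These 6 genes were taken by symbol, out of 54658 gene symbols listed in each of the deposited count tables, and every one of them was found in both tables. The rule used the gene names alone, but the members were chosen with earlier results of these data known. Cd38 and Bst1 are surface proteins of myeloid and other cells that split NAD into nicotinamide and ADP-ribose or cyclic ADP-ribose, and CD38 is best known in macrophages as a marker of inflammatory activation. Sarm1 is the intracellular NAD hydrolase of axons and is switched on by a high ratio of NMN to NAD. Nadk and Nadk2 phosphorylate NAD to NADP in the cytosol and in mitochondria, respectively, and Nnt, in the inner mitochondrial membrane, uses the proton gradient to transfer electrons from NADH to NADP.

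RNA was sequenced from 24 libraries of male C57BL/6 mice aged 7 to 12 weeks that received β-nicotinamide mononucleotide (β-NMN), a precursor of NAD, at 185 mg/kg per day or saline as vehicle, both by intraperitoneal injection. In the thioglycollate (TGC) model of sterile peritonitis, lavage cells of 6 vehicle mice and 6 β-NMN mice were collected on day 3, plated and exposed to E. coli for 6 h at 15 bacteria per cell. No library of cells without bacteria entered the comparison, so that every peritoneal level is that of stimulated cells. In cecal ligation and puncture (CLP), a model of polymicrobial sepsis, the heart and the lung of the same 3 vehicle and 3 β-NMN mice were taken after 24 h. According to the paper, TGC mice were injected daily, beginning together with TGC, whereas the CLP organs followed a single administration after surgery. The dosing thus differed between the models. The source label of these organs names thioglycollate, whereas their titles and tissue labels give CLP, and the organs of mice without CLP were not analysed here. The substrain of C57BL/6 is not in the labels, which matters for Nnt because some C57BL/6J lines carry a deletion within that gene.

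Total counts ranged from 31.1 to 112 M in peritoneal libraries, from 27.3 to 68.5 M in hearts and from 8.92 to 28.4 M in lungs. Of the peritoneal libraries, vehicle replicates 4 to 6 and β-NMN replicates 1 and 2 held over 80 M counts, and the others held at most 53.3 M. Macrophage markers were high in the peritoneal cells (a summed level of 7 genes of 7001 to 13323 CPM, the library-scaled count of a gene), cardiomyocyte markers in the hearts (37001 to 71990 CPM) and alveolar type 2 markers in the lungs (17599 to 31798 CPM). Both libraries of vehicle replicate 2 of the CLP mice stood apart. Each library was set against the mean of all other libraries of its tissue, of both treatments. The SD over genes of this log2 difference was 0.98 in the heart and 1.59 in the lung of vehicle replicate 2, against 0.38 to 0.61 in the other organ libraries. Its heart had the lowest cardiomyocyte sum (37001 CPM, against at least 61405 CPM in the others) and the highest mesothelial sum (115 CPM, against at most 16.5 CPM). Its lung had 8.92 M counts and the lowest macrophage sum (926 CPM, against at least 3254 CPM). Values without this mouse are given beside the results below that rest on it.

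The members differed in level by more than 3 orders of magnitude. To compare genes, CPM was divided by the length in kilobases of all annotated exons of each gene (GENCODE M21, GRCm38). In vehicle peritoneal cells, Cd38 was highest with 83.3 ± 17.3 CPM per kb (SD, n = 6), followed by Bst1 with 54.8 ± 11.3 and Nadk with 37.2 ± 5.44 CPM per kb. The ranges of Cd38 and Bst1 overlapped only just (68.4 for the lowest Cd38 and 68.5 for the highest Bst1 library), and those of Bst1 and Nadk overlapped as well. Far below them came Nadk2 (1.83 ± 0.12 CPM per kb) and Nnt (0.55 ± 0.10 CPM per kb), which did not overlap with each other or with Nadk. Sarm1 was the lowest with 0.028 ± 0.016 CPM per kb. The order was another one in the vehicle hearts, where Nnt led with 60.9 ± 28.7 CPM per kb (SD, n = 3), Nadk and Nadk2 followed with overlapping ranges (20.2 ± 2.49 and 16.8 ± 6.60 CPM per kb), and Cd38 and Bst1 had 9.13 ± 0.62 and 5.22 ± 0.05 CPM per kb. The range of Nadk2 also reached down into that of Cd38. Both overlaps came from vehicle replicate 2 (9.29 CPM per kb of Nadk2), and in the other vehicle hearts Nadk2 (19.8 and 21.5 CPM per kb) lay above Nadk (19.4 and 18.1) and Cd38 (8.54 and 9.08). In vehicle lungs, Nadk led (25.7 ± 14.4 CPM per kb), with overlapping ranges of Nadk and Bst1 (10.1 ± 3.53 CPM per kb) and of Bst1 and Cd38 (7.13 ± 1.92 CPM per kb). Without vehicle replicate 2 these ranges did not overlap, with 30.2 and 37.3 CPM per kb of Nadk, 11.4 and 12.7 of Bst1 and 6.60 and 5.54 of Cd38. With the length of the longest transcript in place of all exons, vehicle heart Nnt moved to 124 CPM per kb, since the exons of the pair of overlapping Nnt genes in GENCODE cover 7037 bases and the longest transcript has 3464 bases. Cd38 and Bst1 of vehicle peritoneal cells then no longer overlapped (lowest Cd38 81.3, highest Bst1 79.5 CPM per kb). Over all members and groups, 18 means moved by at least 1 SD with that length and 18 did not. The peritoneal and CLP tables were scaled separately, so levels set across them carry that limit.

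**Figure D1:**
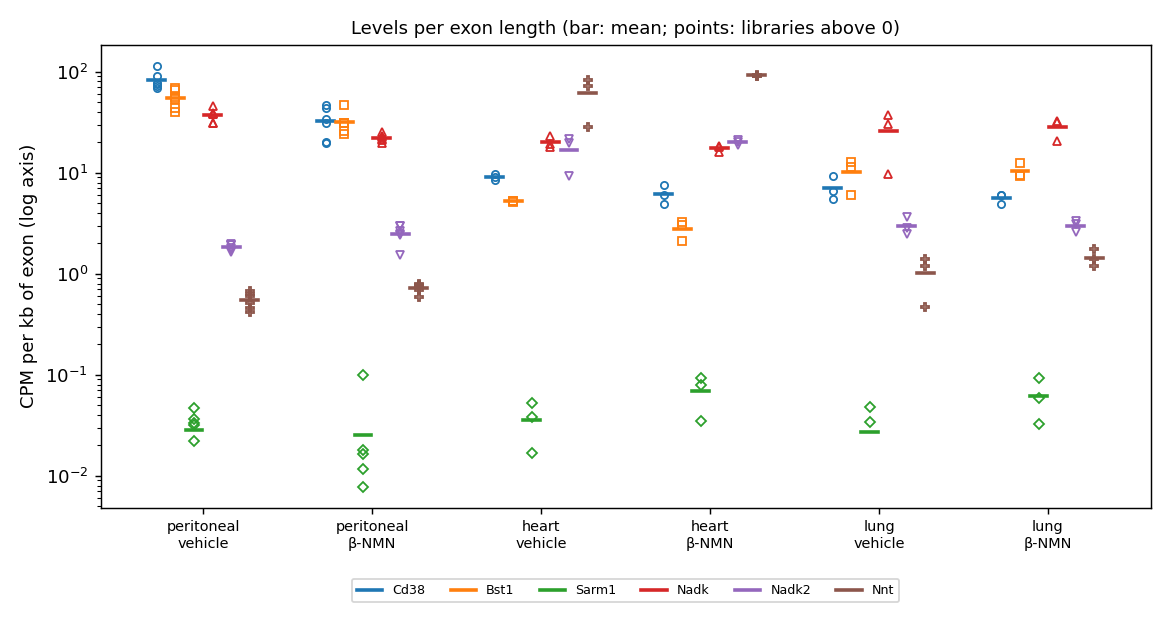
Level of each member in CPM per kilobase of exon (log axis) in the 6 groups, with a bar at the mean and a point for each library above 0. Cd38 and Bst1 lead in peritoneal cells, Nnt leads in hearts, and Sarm1 is below 0.1 CPM per kb in every library.

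The first comparison asked which of these genes differed between peritoneal cells of β-NMN and vehicle mice after exposure to bacteria. Cd38, Bst1 and Nadk fell, by 2.57-fold, 1.74-fold and 1.68-fold, while Nadk2 and Nnt rose by 1.37-fold and 1.32-fold. The cell surface glycohydrolases and the cytosolic kinase were thus lower in β-NMN cells, and the mitochondrial kinase and transhydrogenase were higher. Sarm1 held too few counts to be tested. All 5 members that passed the low-count filter had an adjusted p below 0.05 (edgeR quasi-likelihood test, Benjamini-Hochberg over 14985 genes), in a comparison in which 51.6% of all genes tested were called, 27.9% as lower and 23.7% as higher. A call is therefore common in these cells, and the values of each gene say more than the call.

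Cd38 (ENSMUSG00000029084.5) lies on chromosome 5 at 43868553 to 43912375, on the plus strand. Its level in vehicle cells had a lowest value of 266, a median of 296 and a highest value of 446 CPM, and in β-NMN cells it had a lowest value of 76.3, a median of 126 and a highest value of 180 CPM. The groups did not overlap, and the highest β-NMN library lay well below the lowest vehicle library. The log2 fold change was −1.36 (SE 0.21, 95% interval −1.81 to −0.91, adjusted p = 9.55e-05), and the exact two-sided permutation test of log2 CPM gave p = 0.00216, the smallest value that 6 against 6 mice allow. Cd38 also varied with depth. Within vehicle mice, the 3 libraries over 80 M counts had 266 to 292 CPM and the 3 others 300 to 446 CPM, and within β-NMN mice the 2 deep libraries had 76.3 and 78.1 CPM and the 4 others 121 to 180 CPM. The log2 fold change was −1.79 within the deep libraries and −1.26 within the others (adjusted p = 3.10e-04 and 8.79e-04). What sets the deep libraries apart is not in the labels, and its part in the level of Cd38 was not tested.

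Bst1 (ENSMUSG00000029082.17) is the next annotated gene upstream of Cd38, at 43818885 to 43843986 on chromosome 5, on the same strand and with a gap of 24566 bases to Cd38 that holds 0 other annotated genes. The level of Bst1 in vehicle cells ranged from 134 to 227 CPM with a median of 182 CPM, and in β-NMN cells from 79.4 to 156 CPM with a median of 102 CPM. One β-NMN library, replicate 5 with 156 CPM, lay inside the vehicle range, and the other 5 lay at or below 103 CPM, under every vehicle library. This was a log2 fold change of −0.80 (SE 0.17, 95% interval −1.15 to −0.44, adjusted p = 0.00104, exact permutation p = 0.00649). Within the deep and the other libraries it was −0.95 and −0.74, with adjusted p of 0.00884 and 0.0203. Bst1 overlaps Fbxl5 on the opposite strand over 2754 bases, and since no source used here gives the strand setting of the counting, reads there could not be assigned to one of the genes. Over the 12 libraries, log2 CPM of Cd38 and Bst1 had a Pearson r of 0.91, and of 0.70 once the group means were removed. The 12 libraries share the treatment split and the depth classes, so this is a description.

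Nadk (ENSMUSG00000029063.16) lies on chromosome 4 at 155562378 to 155591001, on the plus strand. In vehicle cells its level had a lowest value of 117, a median of 143 and a highest value of 171 CPM, against 73.8, 82.5 and 93.9 CPM in β-NMN cells. As for Cd38, the groups did not overlap, which held for 26.6% of all genes tested. The log2 fold change was −0.75 (SE 0.10, 95% interval −0.96 to −0.53, adjusted p = 2.74e-05, exact permutation p = 0.00216). Unlike for Cd38, the depth classes of Nadk overlapped within the vehicle group (117 to 171 CPM in deep libraries, 117 to 143 CPM in the others) and within the β-NMN group. The fold change was −0.66 within deep libraries and −0.70 within the others (adjusted p = 0.0292 and 0.00259).

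RefSeq promoter windows, of 250 bases before to 50 bases after a transcript start, were held for 3 of the 6 members (Cd38, Sarm1 and Nadk). Nadk, whose level separated the groups, has 2 such starts 1434 bases apart. For each window, the bases before the first annotated exon within that window are shown, because the counts per gene do not tell which start was used. They are from GRCm38.p6, plus strand, 5′ to 3′, with each CpG in capitals, at chr4:155562131-155562377 for the upstream start and chr4:155563565-155563699 for the downstream start. The downstream stretch lies after the annotated gene start at 155562378 and ends short of its own RefSeq start at 155563815.
Nadk upstream start: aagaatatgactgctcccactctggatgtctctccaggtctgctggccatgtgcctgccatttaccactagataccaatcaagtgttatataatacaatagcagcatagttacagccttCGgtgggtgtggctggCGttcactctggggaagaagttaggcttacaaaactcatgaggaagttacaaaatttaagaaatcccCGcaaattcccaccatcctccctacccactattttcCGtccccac
Nadk downstream start: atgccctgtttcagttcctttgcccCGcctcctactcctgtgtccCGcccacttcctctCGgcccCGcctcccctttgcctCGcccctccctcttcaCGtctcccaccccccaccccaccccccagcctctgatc
The whole upstream window had a GC content of 46.7% and 4 CpG and the whole downstream window had 67.0% and 24 CpG, against a median of 7 CpG in all 32851 RefSeq windows of this length. On either strand, neither window held the AP-1 letters TGANTCA (present in 7.81% of all windows), and the downstream window held 1 E-box, CACGTG (7.15%). The downstream stretch shown holds 6 of the 24 CpG and not this E-box. The window of Cd38 held neither of these motifs and only 1 CpG. It began at 43868559, after the annotated gene start at 43868553, so it covers annotated gene sequence and not the bases upstream.

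Nadk2 (ENSMUSG00000022253.15) lies on chromosome 15 at 9071260 to 9110891. Its level ranged from 8.49 to 10.0 CPM in vehicle cells (median 9.53 CPM) and from 7.93 to 15.2 CPM in β-NMN cells (median 13.0 CPM). The lowest of all 12 libraries was β-NMN replicate 6, and the other 5 β-NMN libraries, from 12.4 CPM upward, were above every vehicle library. A log2 fold change of 0.45 was fitted (SE 0.13, 95% interval 0.16 to 0.74, adjusted p = 0.0116, exact permutation p = 0.0152). Within deep libraries it was 0.57 (adjusted p = 0.0244), and within the others, which include β-NMN replicate 6, it was 0.43 and did not pass (adjusted p = 0.168).

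Nnt (ENSMUSG00000025453.18) lies on chromosome 13 at 119335448 to 119408997, on the minus strand, and nearly the whole gene is covered by another GENCODE gene of the same name (ENSMUSG00000116207.1), while the tables hold 1 row. If the authors' annotation kept both genes, reads shared by them may not have been counted, so its level is uncertain. In peritoneal cells, Nnt had 2.92 to 4.79 CPM in vehicle mice (median 3.94 CPM) and 4.13 to 5.63 CPM in β-NMN mice (median 5.25 CPM), with 5 of 6 β-NMN libraries above the vehicle range. The log2 fold change was 0.40 (SE 0.14, 95% interval 0.10 to 0.69, adjusted p = 0.0248, exact permutation p = 0.0130). This was the least secure of the calls. Adjusted p rose to 0.0595, 0.0524 and 0.0547 without vehicle replicate 2, 5 or 6, to 0.0906 without the low-count filter, and to 0.107 and 0.171 within the deep and the other libraries, where the log2 fold changes were 0.54 and 0.37.

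Sarm1 (ENSMUSG00000050132.13), on chromosome 11 at 78472330 to 78497754 on the minus strand, had 0 to 29 counts in vehicle and 0 to 25 counts in β-NMN peritoneal libraries. One library of each group was at 0 counts, which allows up to 0.058 CPM in vehicle replicate 2 and up to 0.080 CPM in β-NMN replicate 3 by a limit of 3 counts that covers counting error only. The highest of the 12 libraries was β-NMN replicate 4 with 0.559 CPM, and the groups overlapped (exact permutation p = 0.532). Within the libraries over 80 M counts, the 3 vehicle libraries had 0.125 to 0.264 CPM and the 2 β-NMN libraries 0.044 and 0.066 CPM, without overlap, and the log2 fold change was −1.71 (adjusted p = 0.0671). Over all 12 libraries without the low-count filter it was −0.25 (adjusted p = 0.888). In the other libraries the ranges overlapped (0 to 0.205 CPM in vehicle and 0 to 0.559 CPM in β-NMN mice).

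**Figure D2:**
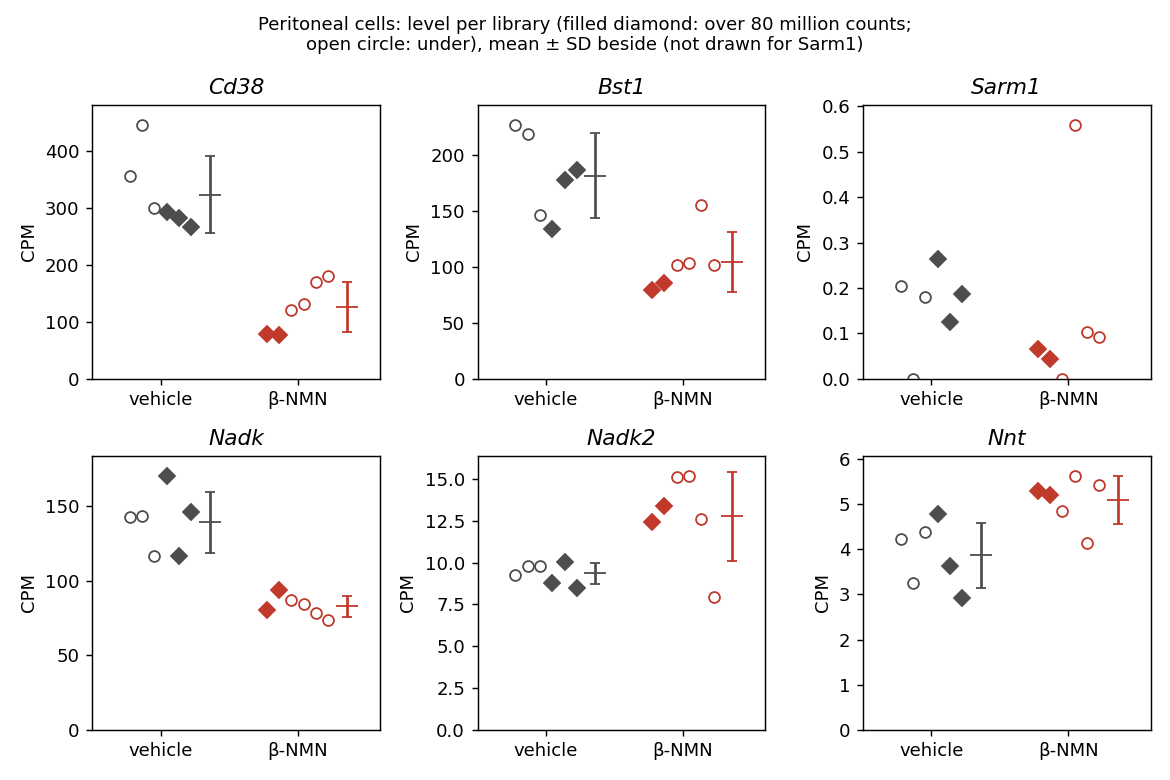
CPM of each member in the 12 peritoneal libraries by treatment, with filled diamonds for libraries over 80 M counts, open circles for the others, and the mean ± SD beside them. The groups do not overlap for Cd38 and Nadk, 1 β-NMN library of Bst1 lies within the vehicle range, and for Nadk2 1 β-NMN library is below all others.

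The lavage cells were a mixture, and markers of other cells moved with the treatment. In such bulk samples, fewer cells of a type and less RNA per cell cannot be told apart. Of 6 neutrophil markers tested, 5 were lower and 1 was higher in β-NMN cells, and the summed level of the 8 listed was 477 to 990 CPM in vehicle and 327 to 456 CPM in β-NMN libraries. Csf3r carried most of this sum (means of 554 and 370 CPM), while S100a8 went from 87.4 to 2.78 CPM and S100a9 from 76.8 to 2.02 CPM, and the median log2 fold change of the tested markers was −4.44. All 4 natural killer cell markers fell, with sums of 21.4 to 102 and 9.40 to 12.7 CPM, and 3 of 4 dendritic cell markers fell, with sums of 31.5 to 51.9 and 11.7 to 17.2 CPM. The macrophage sum overlapped between groups (7001 to 13323 and 10659 to 12238 CPM), with 3 of 7 genes higher and 1 lower. All 3 tested fibroblast markers were lower (sums of 52.6 to 595 and 13.98 to 50.5 CPM), all 3 erythroid markers were higher (2.69 to 33.1 and 44.6 to 114 CPM), and 3 of 4 mesothelial markers were lower (2.32 to 14.5 and 1.43 to 4.84 CPM). Of 6 T cell markers, 5 were lower and 1 was higher, while their sums overlapped (26.7 to 57.5 and 41.7 to 59.9 CPM). Of 4 resident peritoneal macrophage markers, 2 were higher and 2 lower (sums of 25.5 to 36.5 and 36.1 to 107 CPM), and of 6 B cell markers, 3 were lower and 1 was higher (sums of 65.6 to 214 and 62.1 to 154 CPM). None of the listed markers of these cell types was at 0 in all libraries of a group, and their part in the levels of the NAD genes was not tested.

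The genes whose log2 CPM ran most closely with each member over the 12 peritoneal libraries were sought among the 9637 tested genes that averaged 1 log2 CPM or more. For Cd38 they were U90926, Slx4ip and Ptges, the last of which encodes microsomal prostaglandin E synthase (r from 0.97 to 0.98, and 0.89 to 0.92 after the group means were removed). For Bst1 they were Lrrc25, Mefv, which encodes pyrin, and the chemokine gene Ccl4 (r from 0.96 to 0.97). Nadk ran with Flt3, Slc39a4 and Itgal (r from 0.97 to 0.97), of which Flt3 is also on the list of dendritic cell markers. Nadk2 ran with Hist1h4i, Rps10 and Gm37123 (r from 0.94 to 0.94), and Nnt with Arl11, Arl8b and Igsf6 (r from 0.92 to 0.95). Before the group means were removed, 263 genes had an r over 0.9 with Cd38 and 389 with Nadk, but only 63 with Bst1, 11 with Nnt and 9 with Nadk2. The part of the treatment split in these counts was not tested.

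Genes that act upstream or downstream of the members were followed in 6 lists of 45 genes, of which 36 were tested in peritoneal cells, 11 were higher, 9 were lower and 16 did not pass (median log2 fold change −0.07, against −0.02 over all genes tested). This is read against the 23.7% of all genes tested that were higher and the 27.9% that were lower. Among the 8 targets and receptors of the second messengers that CD38 makes, 4 rose and 2 fell. Trpm2, a calcium channel opened by ADP-ribose, fell from 20.1 ± 5.45 to 3.04 ± 0.48 CPM (SD, n = 6), a log2 fold change of −2.72 (SE 0.19, adjusted p = 5.55e-08). Lsm12 fell slightly (log2 fold change −0.28). Both Lsm12 and Jpt2 encode proteins that bind NAADP, and Jpt2 rose from 13.6 ± 2.30 to 27.9 ± 1.32 CPM (log2 fold change 1.04). Tpcn2, a lysosomal channel opened by NAADP, also rose (0.67). The receptors of this list thus changed in opposite directions. Of the 4 tested genes that handle ADP-ribose, the ADP-ribose hydrolase Nudt9 rose (0.74) and Adprm fell (log2 fold change −0.70). Slc25a51, the mitochondrial NAD carrier, was the single gene of 4 on the Sarm1 and NMN list that passed (0.27), and Nmnat1, Nmnat2 and Nmnat3, which make NAD from NMN, had log2 fold changes of 0.28, −0.35 and −0.02 that did not pass.

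Of the 5 NADPH-dependent reductases, 4 fell and 0 rose, with a median log2 fold change of −0.93, where 27.9% of all genes tested were lower. Nqo1, a quinone reductase, fell from 11.9 ± 4.94 to 1.37 ± 0.31 CPM (SD, n = 6, log2 fold change −3.11, SE 0.26, adjusted p = 3.07e-07). Txnrd1, the cytosolic thioredoxin reductase, fell from 504 ± 81.9 to 170 ± 17.2 CPM (log2 fold change −1.57, SE 0.11, adjusted p = 8.94e-08), whereas mitochondrial Txnrd2 had a log2 fold change of 0.35 that did not pass. The list of NADPH-regenerating enzymes was divided, with 4 of 13 tested genes higher, 2 lower and 7 not past the threshold. H6pd, the hexose-6-phosphate dehydrogenase of the endoplasmic reticulum, and Glud1, mitochondrial glutamate dehydrogenase, rose (log2 fold changes 0.73 and 0.36). Pgd, of the cytosolic pentose phosphate pathway, fell from 116 ± 23.5 to 81.2 ± 7.21 CPM (log2 fold change −0.52), and Aldh1l2 fell at very low levels, from 0.66 to 0.29 CPM (log2 fold change −1.20). Of 2 tested genes for the turnover of NADP and related nucleotides, Nudt13 rose (0.69). In the hearts and lungs, 0 of the 42 and 40 tested genes of the lists passed. The values of Nqo1 there were 0.33 (heart) and −0.76 (lung) on the log2 scale, and those of Trpm2 were 0.51 and −0.22.

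In CLP hearts, 0 of 16245 genes (0%) had an adjusted p below 0.05 with edgeR's quasi-likelihood test, 1837 had an unadjusted p below 0.05, and DESeq2 called 262. The 2 surface glycohydrolases nevertheless lay lower in every β-NMN heart than in any vehicle heart. Cd38 had 33.2, 38.0 and 35.3 CPM in vehicle replicates 1 to 3 and 23.3, 19.1 and 29.4 CPM in β-NMN replicates 1 to 3. Bst1 had 17.4, 17.4 and 17.1 CPM in vehicle hearts, which lay very close together, and 10.7, 6.96 and 10.1 CPM in β-NMN hearts. The log2 fold changes were −0.58 for Cd38 (SE 0.18, 95% interval −1.01 to −0.15) and −0.91 for Bst1 (SE 0.19, 95% interval −1.36 to −0.46), both with an adjusted p of 0.435 and an exact permutation p of 0.1, the smallest that 3 against 3 mice can give. Without vehicle replicate 2 they were −0.52 and −0.91. DESeq2 placed Bst1 at an adjusted p of 0.00693, and no other member. Groups that did not overlap were seen for 23.0% of all heart genes tested, so 3 of 6 members without overlap (Cd38, Bst1 and Nnt) is read against that share. The neutrophil sum was also lower in each β-NMN heart (18.1 to 21.1 CPM) than in the vehicle hearts (29.6 to 49.5 CPM), as was the natural killer cell sum (0.19 to 0.40 and 0.44 to 0.77 CPM). The dendritic cell sum was higher in each β-NMN heart (32.6 to 36.5 and 16.7 to 30.7 CPM), whereas the macrophage sums overlapped (311 to 579 and 259 to 448 CPM). Their part in the Cd38 and Bst1 levels was not tested.

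Nnt had 506, 199 and 580 CPM in vehicle hearts and 644, 653 and 643 CPM in β-NMN hearts. The β-NMN hearts lay close together and above every vehicle heart, and the low value of 199 CPM was that of vehicle replicate 2, the heart with the lowest cardiomyocyte sum. The cardiomyocyte sums separated the groups in the same direction, with 64471 to 71990 CPM in β-NMN and 37001 to 62052 CPM in vehicle hearts, and so did the endothelial sums (1093 to 1316 and 1025 to 1086 CPM). Their part in the level of Nnt was not tested. The log2 fold change of 0.59 (SE 0.36, adjusted p = 0.490) dropped to 0.25 without that heart. Nadk2 had the same low library, with 101, 47.6 and 110 CPM in vehicle hearts and 102, 107 and 96.7 CPM in the treated hearts. The fitted value of 0.24 on the log2 scale (SE 0.29) became −0.05 without vehicle replicate 2. For Nadk, vehicle hearts had 72.7, 85.9 and 68.0 CPM and β-NMN hearts 68.5, 66.9 and 60.7 CPM, with ranges that overlapped (log2 fold change −0.22, SE 0.13, and −0.11 without vehicle replicate 2). Sarm1, with 4 to 19 counts per heart, had 0.201 ± 0.101 and 0.388 ± 0.170 CPM (SD, n = 3), and the ranges overlapped.

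In CLP lungs, 0 of 17008 genes (0%) passed with edgeR, 301 had an unadjusted p below 0.05 and DESeq2 called 9. The groups overlapped for every member, in a tissue where 8.03% of all genes did not overlap (4.23% higher and 3.8% lower). Cd38 had 25.7, 36.02 and 21.6 CPM in vehicle lungs and 23.3, 23.3 and 19.0 CPM in β-NMN lungs. The highest value was vehicle replicate 2, and the log2 fold change of −0.38 (SE 0.28) shrank to −0.08 without it. Bst1 had 37.9, 20.0 and 42.1 CPM against 30.5, 31.2 and 41.6 CPM, and Nadk had 113, 36.02 and 140 CPM against 78.0, 119 and 123 CPM. For both genes vehicle replicate 2 was the lowest lung. Their log2 fold changes of 0.04 (95% interval −0.65 to 0.73) and 0.15 (95% interval −0.94 to 1.24) turned to −0.19 and −0.22 without it. Nadk2 had 14.4, 18.5 and 12.7 CPM against 13.1, 16.97 and 15.98 CPM, and its log2 fold change of −0.015 (SE 0.26) turned to 0.21 without vehicle replicate 2. Nnt was low in all lungs, with 9.78, 3.28 and 8.39 CPM against 8.34, 12.3 and 9.86 CPM, and its log2 fold change of 0.50 (SE 0.40) became 0.19 without vehicle replicate 2. Sarm1 was not tested and had at most 11 counts. The 95% intervals of the lungs included the peritoneal log2 fold changes of Nadk, Nadk2 and Nnt, but not that of Cd38 (−1.05 to 0.30 in lungs, −1.36 in peritoneal cells) or of Bst1 (−0.80 in peritoneal cells). The difference between these separate experiments, which also differed in dosing, was not tested.

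**Figure D3:**
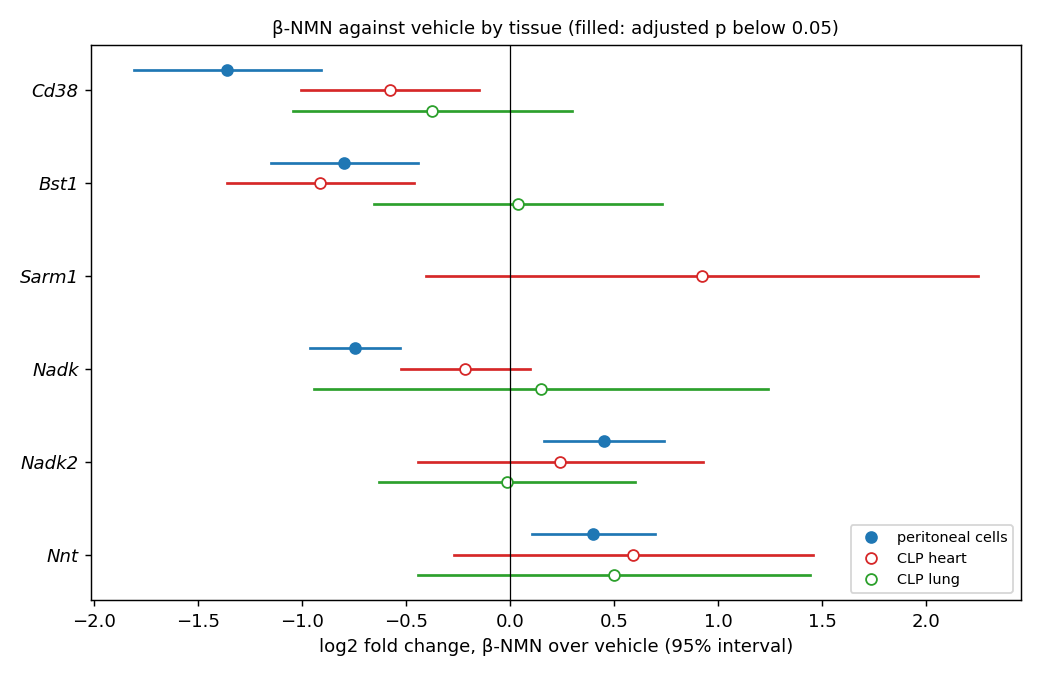
Log2 fold change of β-NMN over vehicle for each member (point) with its 95% interval (line) in peritoneal cells, CLP hearts and CLP lungs, filled where the adjusted p was below 0.05. Cd38 is on the lower side in all 3 tissues, Bst1 in peritoneal cells and hearts, and intervals in the lungs all include 0.

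**Figure D4:**
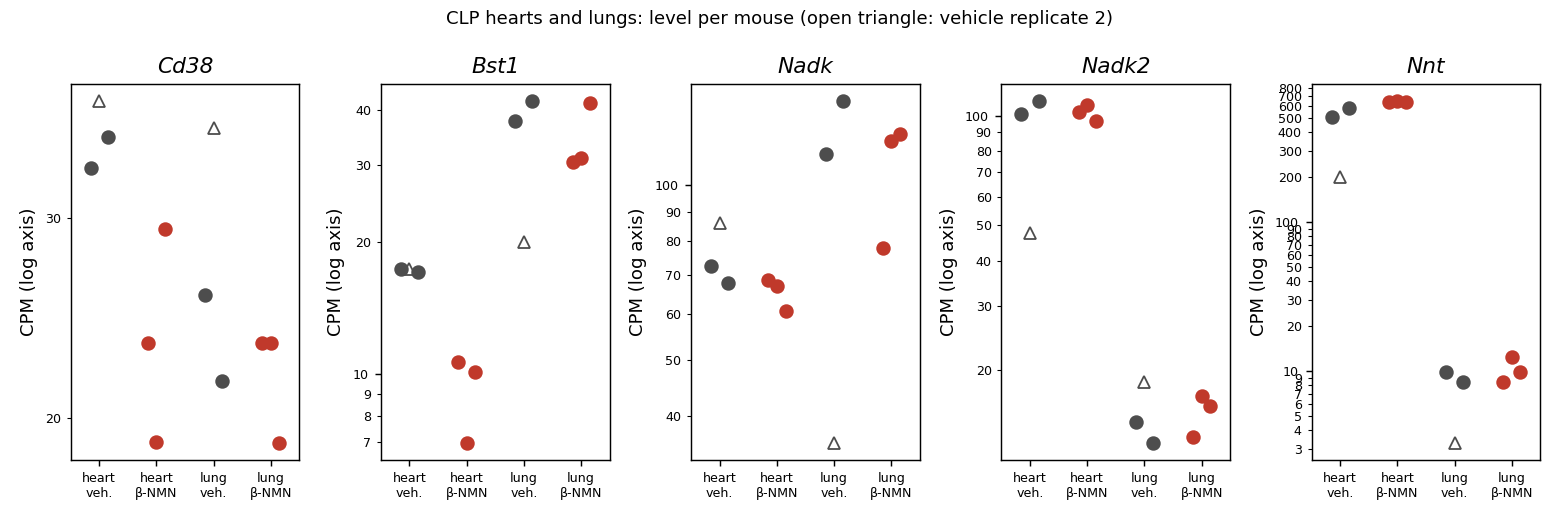
CPM (log axes that differ between panels) of 5 members in the heart and lung of each CLP mouse, with vehicle replicate 2 as an open triangle. Bst1 in hearts separates the treatment groups (17.1 to 17.4 against 6.96 to 10.7 CPM), and vehicle replicate 2 is the highest or lowest vehicle point for Bst1 in the lung and for each of the other 4 members in both organs.

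Whether the β-NMN effect differed between heart and lung was tested as an interaction over the 12 CLP libraries. Of 18318 genes, 0 passed (0%) and DESeq2 called 14, none of them a member. Bst1 came nearest, with a difference of −0.95 between the log2 fold changes of heart and lung (SE 0.39, 95% interval −1.80 to −0.10, unadjusted p = 0.0320, adjusted p = 0.960). Part of this difference rests on vehicle replicate 2. In the separate fits without that mouse, Bst1 was −0.91 in hearts and −0.19 in lungs. Cd38 had a difference of −0.23 (95% interval −0.94 to 0.48), which was −0.41 without vehicle replicate 2 and −0.50 to −0.05 over all single mice left out. The differences of the others lay between −0.35 (Nadk) and 0.22 (Nadk2). Without vehicle replicate 2 the values of Nadk and Nadk2 changed sign, to 0.14 for Nadk and −0.24 for Nadk2.

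The clearest contrast in the CLP mice was between the organs, in which 64.8% of 18318 genes passed. Nnt was 61.1-fold higher in heart than in lung (log2 difference 5.93, SE 0.36, adjusted p = 6.84e-08) and Nadk2 was 6.15-fold higher (log2 difference 2.62, SE 0.21, adjusted p = 6.82e-07). Bst1 was 2.68-fold lower in heart (log2 difference −1.42, SE 0.20, adjusted p = 6.12e-05). Each of these held its direction in 6 of 6 mice, which was so for 58.0% of all genes tested, and the exact sign-flip permutation test gave p = 0.03125, the smallest value for 6 pairs. The edgeR fit above did not use the pairs. With the mouse as a block, its adjusted p was 1.47e-06 for Nnt, 8.26e-05 for Nadk2 and 5.37e-04 for Bst1. From mouse to mouse, heart minus lung was steadiest for Nnt, from 5.68 to 6.26 on the log2 scale. That of Nadk2 was 1.36 in vehicle replicate 2 and 2.59 to 3.11 in the others, and that of Bst1 was −0.20 in vehicle replicate 2 and −1.12 to −2.15 in the others. The transcripts of both mitochondrial proteins were thus higher in the heart.

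Cd38 differed little between organs, with a log2 difference of 0.24 (SE 0.16, 95% interval −0.11 to 0.60, adjusted p = 0.204), and it was higher in the heart of 4 mice, lower in 1 and nearly equal in β-NMN replicate 1 (0.00057). Nadk was lower in the heart of 5 of 6 mice, with a log2 difference of −0.53 (SE 0.27, adjusted p = 0.105). Its exception was again vehicle replicate 2 (1.25 on the log2 scale). Without that mouse both passed, at 0.44 for Cd38 (adjusted p = 0.0108) and −0.66 for Nadk (adjusted p = 7.43e-04). Over all 6 mice, the exact sign-flip permutation test gave p = 0.156 for Cd38 and 0.344 for Nadk. Sarm1 had a log2 difference of 0.15 (95% interval −0.98 to 1.27). Alveolar type 2 and cardiomyocyte markers separated the organs by orders of magnitude, so that these are differences between tissues of different cell content.

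**Figure D5:**
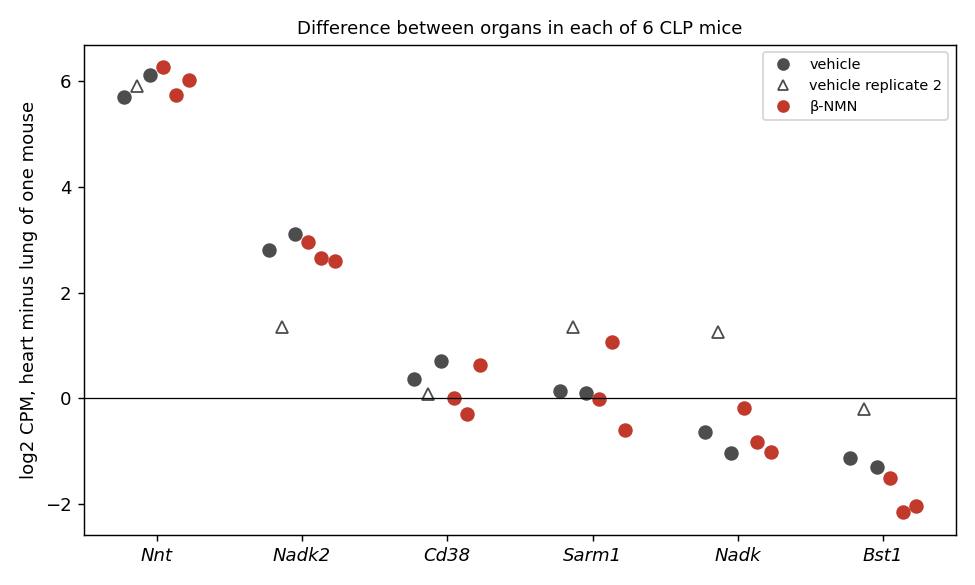
Difference of log2 CPM between heart and lung of the same mouse for each member in 6 CLP mice, with vehicle replicate 2 as an open triangle. Nnt lies between 5.68 and 6.26 in all mice, Nadk2 and Bst1 keep their sign in all mice, and the triangle is the outermost point for Nadk2, Sarm1, Nadk and Bst1.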

How the data were processed

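The authors deposited read counts per gene symbol, without normalization, in a table for peritoneal cells and a table for CLP organs. The methods and submitters' notes give poly(A) RNA, a NovaSeq sequencer, STAR (2.7.3a in the notes) on mm10 and featureCounts 2.0.0. The annotation and strand setting are not given in the sources used here.

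Each tissue was fitted alone in edgeR 4.0.16 under R 4.3.3 (filterByExpr, TMM factors, the older form of the quasi-likelihood test), with Benjamini-Hochberg adjustment over all genes tested and a threshold of 0.05. The contrast of organs and the interaction used 4 group means over 12 CLP libraries. SE was the log2 fold change divided by the square root of F. CPM used 1 set of TMM factors per deposited table, and log2 CPM a prior count of 2. Single members were also compared by exact two-sided permutation. P-values within a tissue measure the spread between mice. In the contrast of organs and the interaction, the heart and lung of each mouse entered as separate libraries. The exact sign-flip test and the fit with the mouse as a block kept the pairs. The tests were also run on simulated counts with planted changes. Those counts were drawn independently for each library, without pairs of organs or a library set apart. Gene positions are from GENCODE M21, and promoters from RefSeq.

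The same replicate numbers were not taken as pairs of mice across treatments, whereas heart and lung pairs came from the titles. A pair of β-NMN hearts carry the number 3, and the heart of the mouse with lung number 2 was numbered 2. Alternatives were DESeq2 1.42.0 and its size factors, no low-count filter, the newer edgeR fit, limma 3.58.1 voom with quality weights, replicate blocks, 1 fit for both organs, a prior count of 0.5 and leaving out each library. The split at 80 M counts was added after the totals were seen. The members and lists were chosen with earlier results of these data known. Beyond the members, up to 2 higher and 2 lower genes with the smallest p were named from each list, and the 3 genes most correlated with each member. The motifs were chosen during the analysis.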

Additional observations from a re-analysis of the deposited data

Results flagged for a closer look

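In the peritoneal cells, the highest or lowest library of each treatment group was compared with the others by Dixon's test (groups of 6, 12 gene and group combinations, of which chance flags about 1 in 20). In 2 combinations a library lay far from the rest of its group. Bst1 was at 156 CPM in β-NMN replicate 5, with a gap to the next library of 0.689 of the range of the group, and this is the library inside the vehicle range. Sarm1 was at 0.559 CPM in β-NMN replicate 4, from 25 counts, with a gap of 0.817 of the range.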

How the results depend on the processing

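In peritoneal cells, 93 alternative values of the 5 tested members kept their direction and side of the threshold, and 7 kept their direction but lost the call (6 of Nnt, 1 of Nadk2). The number of members called was 4 to 5 when single libraries were left out and 3 among libraries under 80 M counts, where 4244 genes were called from fewer samples, in place of 7733. Leaving out single libraries gave 7132 to 8049 genes.

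In hearts, in place of 0 genes, 3 were called without the low-count filter, 262 with DESeq2 (including 1 member, Bst1), 3 with limma-voom and 0 to 5 when single hearts were left out. In lungs, DESeq2 called 9 and limma-voom 7. For the interaction, 2 genes were called without the filter and 14 with DESeq2. Between organs, 5 members were called with limma-voom and 3 to 5 when single mice were left out (5 without vehicle replicate 2). The cause was not tested.

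Values near 0 changed sign. In hearts, Nadk2 went to −0.054 without vehicle replicate 2, within −0.054 to 0.46 over single hearts left out. In lungs, limma-voom gave −0.037 for Bst1 and −0.045 for Nadk, and leaving out single lungs gave −0.19 to 0.23 for Bst1, −0.22 to 0.51 for Nadk and −0.13 to 0.21 for Nadk2. Nadk2 in lungs was also 0.031 without the filter, 0.19 with limma-voom, 0.00401 with the replicate block and 0.021 in the fit of both organs. Between organs, Sarm1 ranged from −0.051 to 0.33 when single mice were left out. In the interaction, Sarm1 was −0.23 with the mouse as replicate block and Nadk2 −0.17 with limma-voom. Leaving out single mice there gave −0.44 to 0.33 for Sarm1, −0.79 to 0.14 for Nadk, −0.24 to 0.54 for Nadk2 and −0.038 to 0.27 for Nnt.

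Across treatments, same-numbered peritoneal mice deviated with correlations of −0.17 to 0.13 (1 of 6 over 0.1), hearts with 0.07 to 0.24 (2 of 3 over 0.1, and each of the 3 correlated best with its own number) and lungs with −0.51 to 0.30. These values do not settle whether the numbers pair mice, and the numbers were not taken as pairs. With the replicate block, 7010 peritoneal genes and 5 members were called, and 0 in hearts and lungs. With the mouse as a block, 11408 genes and 3 members differed between organs. The block changed no other call. A prior count of 0.5 changed no side of the threshold. Sarm1 had at most 29 counts in any library. Genes at an unadjusted p below 0.05 numbered 301 in lungs (755 without vehicle replicate 2, and 127 to 755 over single lungs left out) and 1837 in hearts (1748 without vehicle replicate 2, and 888 to 2721 over single hearts left out).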
